A study of Mus musculus with 2 samples.

Results

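The region described here is a window of 100 kb on mouse chromosome 2, chr2:98500001-98600000 in build mm9, in a single-cytosine map of 5-hydroxymethylcytosine (5hmC) of the mouse embryonic stem cell line E14, which is an established line. All listed cytosines of the window were taken, whatever their sequence context or class. They numbered 721, out of 13025343 in the whole map. The window was chosen by its reads: it held 3145112 of the 176006227 reads, or 1.79% (exact Clopper-Pearson 95% interval 1.785 to 1.789, counting error only), on 0.00554% of the sites. These totals are therefore a description of the choice and not a finding. The adjoining windows of 100 kb held 51 sites with 368 reads on the left and 56 sites with 487 reads on the right.

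The study comprised 2 libraries of 1 group, made from 100 ng of genomic DNA of E14 cells at passage 12, and no other condition. The deposited table gives 1 read count per cytosine for both libraries together. No value below has a replicate error and no test between samples was possible. Nothing in the labels says whether the libraries came from separate cultures.

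5hmC is made from 5-methylcytosine by the TET enzymes. In the assay it is glucosylated, and the endonuclease AbaSI then cuts the DNA between the modified cytosine and a second cytosine on the opposite strand. Mouse chromosomes carry long arrays of short tandem repeats at their centromeres: the major satellite, with a unit of 234 bp, lies in the pericentromeric DNA, and the minor satellite, with a unit of 120 bp, lies at the centromere and holds the binding site of the centromere protein CENP-B. Reference assemblies hold few of these copies, so reads from many genomic copies can fall on the same assembled place. How many genomic copies stand behind the reads of the window was not measured.

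Units of 234 bp and 120 bp were found in the window. A genome sequence of the build was not used here, but each line of the table gives a cytosine, its strand and the base after it, so the listed sites spell part of the sequence. They gave 1142 bases in the 4 dense blocks described below, 205 of them more than once and 0 in conflict. All positions refer to the same build, so this agreement is only a check of the reading. The following lines show 3 copies of a unit of 234 bp, because they hold most of the reads. They are read 5′ to 3′, with listed CG sites in capitals, other given bases in lower case and n for a base that no listed site gives.

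234 bp unit, copy 1, chr2:98506709-98506942, plus strand: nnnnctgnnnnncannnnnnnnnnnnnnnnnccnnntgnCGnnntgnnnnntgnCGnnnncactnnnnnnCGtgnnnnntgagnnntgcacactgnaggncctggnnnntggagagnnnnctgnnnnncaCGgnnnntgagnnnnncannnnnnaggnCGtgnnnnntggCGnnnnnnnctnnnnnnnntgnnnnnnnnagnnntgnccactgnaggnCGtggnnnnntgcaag
234 bp unit, copy 2, chr2:98506943-98507176, plus strand: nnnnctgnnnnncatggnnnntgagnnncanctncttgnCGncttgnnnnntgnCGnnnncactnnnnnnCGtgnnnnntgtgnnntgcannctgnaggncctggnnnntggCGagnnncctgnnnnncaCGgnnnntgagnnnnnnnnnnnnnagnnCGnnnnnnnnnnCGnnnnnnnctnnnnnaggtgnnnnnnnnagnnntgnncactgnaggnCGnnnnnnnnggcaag
234 bp unit, copy 3, chr2:98507194-98507427, plus strand: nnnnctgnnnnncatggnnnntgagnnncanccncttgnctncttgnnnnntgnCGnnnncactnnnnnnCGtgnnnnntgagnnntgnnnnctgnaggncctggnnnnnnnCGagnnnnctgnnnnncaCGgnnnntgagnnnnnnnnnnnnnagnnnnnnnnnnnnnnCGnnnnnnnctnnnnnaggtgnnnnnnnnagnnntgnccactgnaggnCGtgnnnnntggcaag

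Copy 2 had the same base as copy 1 at 89 of 93 bases given in both (95.7%), and copy 3 at 86 of 89 (96.6%). The start of copy 1 was chosen for the most agreement with the bases that follow it. Bases are given only by listed cytosines, so a cytosine missing from a copy mostly goes uncounted. These shares can therefore lie above the sequence identity of the copies. Copy 2 followed copy 1 directly. Between copies 2 and 3 lay 17 bases, chr2:98507177-98507193, with 4 sites and 1234 reads. They had the same base as the first 17 bases of copy 3 at 6 of 7 bases given in both. Against the last 17 bases of copy 2 this was 2 of 4. Copy 3 thus began 251 bp after copy 2 and 485 bp after copy 1.

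A second unit of 120 bp is shown in the following lines for its copies in 3 of the blocks, with the same use of capitals. It is printed because its CG sites in blocks A and C include those of a partial match to the CENP-B box motif.

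120 bp unit, block A, copy 1, chr2:98502667-98502786, minus strand: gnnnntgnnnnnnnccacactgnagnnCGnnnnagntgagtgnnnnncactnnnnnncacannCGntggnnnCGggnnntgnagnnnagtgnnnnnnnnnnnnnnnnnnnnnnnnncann
120 bp unit, block A, copy 2, chr2:98502787-98502906, minus strand: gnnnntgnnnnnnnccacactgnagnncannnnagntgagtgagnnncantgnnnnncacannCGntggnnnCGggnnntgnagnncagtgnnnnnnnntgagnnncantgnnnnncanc
120 bp unit, block C, chr2:98505277-98505396, plus strand: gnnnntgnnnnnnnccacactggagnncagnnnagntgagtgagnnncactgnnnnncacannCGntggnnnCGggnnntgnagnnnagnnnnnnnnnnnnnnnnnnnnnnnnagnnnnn
120 bp unit, block D, chr2:98506374-98506493, minus strand: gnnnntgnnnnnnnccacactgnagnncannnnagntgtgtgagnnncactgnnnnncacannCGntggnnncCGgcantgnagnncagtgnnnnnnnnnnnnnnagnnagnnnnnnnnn

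Against the first copy in block A, the second had the same base at 47 of 48 bases, the copy in block C at 44 of 45 and the copy in block D at 44 of 47. The limits given for the longer unit hold for these counts too. The unit lengths of 234 bp and 120 bp are those of the mouse major and minor satellites. The given bases were not compared with a satellite sequence, which was not used here. The units are therefore named by their lengths. Each of the 3 printed copies in blocks A and C holds a match to the CENP-B box motif, which spans the last 2 CG sites in capitals.

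The sites were packed into 4 short blocks. Joining sites no more than 200 bp apart gave 4 blocks with at least 20 sites. Block A, chr2:98502394-98503151, held 207 sites with 512140 reads. Block B, chr2:98503831-98504263, held 102 sites with 23134 reads. Block C, chr2:98505026-98505476, held 69 sites with 37559 reads. Block D, chr2:98506383-98507502, held 302 sites with 2572001 reads. Together they held 680 sites and 99.99% of the reads on 2762 bases, which is 2.76% of the window. The density was 246 sites per kb in the blocks and 0.422 sites per kb in the rest of the window. With sites up to 1000 bp apart joined, 1 run of 5833 bp held 681 of the sites.

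Outside the 4 blocks the window held 41 sites with 2 to 20 reads each, a median of 6 and 278 reads in all. Of these, 33 were CG. The blocks had a median of 377 reads per site with quartiles of 82.8 and 1566, and 211 of their sites had 1000 reads or more. Of the 680 block sites, 41 had fewer than 10 reads. Most of these lay in blocks B and C, whose medians were 45.5 and 64 reads per site, and a few in blocks A and D.

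**Figure D1:**
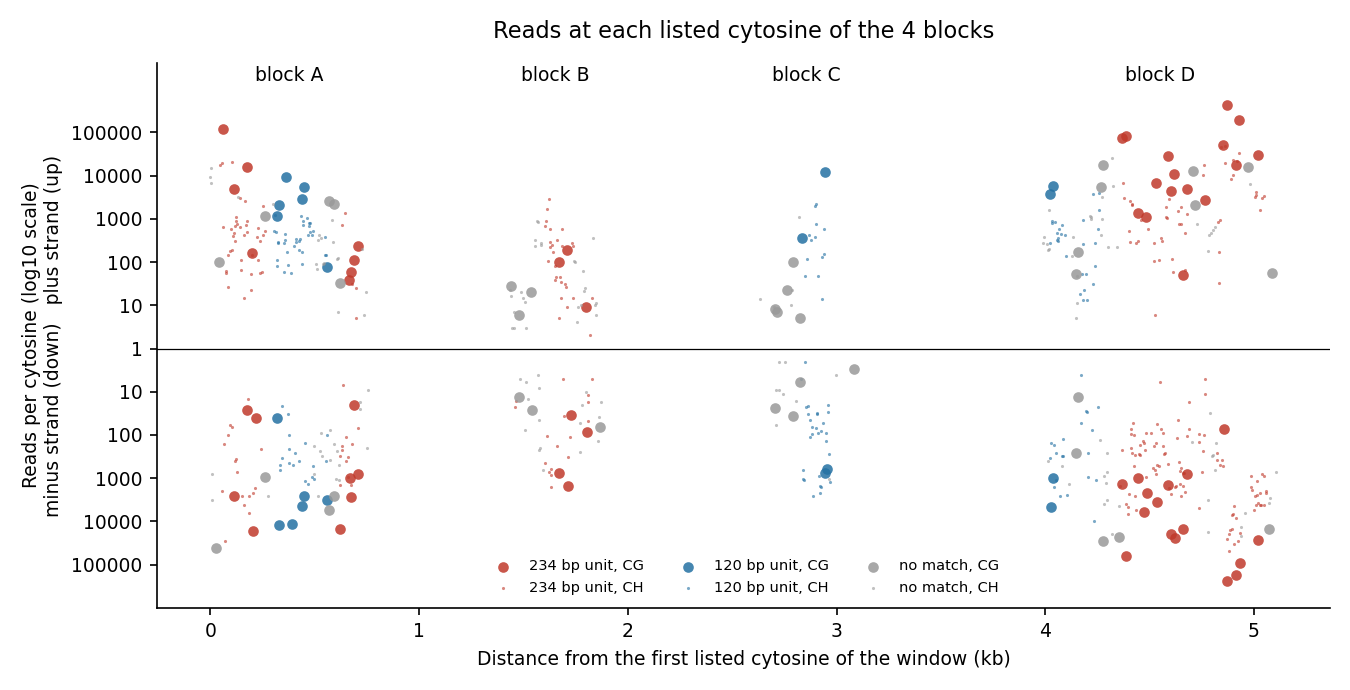
Reads at each listed cytosine of the 4 blocks (vertical, log10 scale, plus strand up and minus strand down) against distance from the first listed cytosine of the window (kb). Large points are CG and small points CA, CC or CT sites. Red marks sites matched to the 234 bp unit, blue sites matched to the 120 bp unit and grey neither. The highest points, up to 426413 reads, lie near the right end of block D.

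The spacing of sites showed the units. Pairs of sites on the same strand and in the same context (CG, CA, CC or CT) were counted at each distance up to 1000 bp. Over distances of 101 to 1000 bp the median was 8 pairs. The counts were highest at 234 bp and at 118 bp, with 83 pairs each. There were 79 pairs at 251 bp, 68 at 485 bp, 61 at 120 bp and 57 at 176 bp. The next were 116 bp with 52 pairs, 148 bp with 44, and 206 bp and 369 bp with 38 each. The distances 251 bp and 485 bp are the offsets of the third copy of the longer unit given above. Among short distances, 58 bp had 78 pairs, 28 bp 72 pairs, 30 bp 66 pairs and 16 bp 59 pairs.

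The blocks differed in their leading distance. Block D had 68 pairs at 234 bp, 67 at 251 bp and 65 at 485 bp. Block A had 29 pairs at 120 bp and 25 at 118 bp, and block C had 18 pairs at 120 bp and 7 at 240 bp. Block B had 13 pairs at 231 bp, 10 at 118 bp and 8 at 234 bp. The tie at 234 bp and 118 bp was broken by the choice of sites: CG sites alone led at 251 bp, CH sites (CA, CC and CT together) alone at 118 bp, and the blocks without D at 120 bp. No single distance therefore describes the window as a whole.

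In the window 22.1% of the 721 sites had a partner of the same strand and context at 234 bp, against 14.1% at the start of chromosome 9 (chr9:3000001-3100000, 1623 sites), 2.37% at the start of chromosome 11 (chr11:3000001-3100000, 5823 sites) and 1.21% of all autosomal sites. At 120 bp the share was 16.1% in the window, against 1.23% at the start of chromosome 9, 2.80% at the start of chromosome 11 and 1.17% over the autosomes. These 2 windows were taken for comparison because they too are rich in CH sites. The distances of 234 bp and 120 bp were chosen from the chromosome 2 window itself. A partner is also met more often where sites are listed densely. The shares are therefore descriptions and no independent support. The start of chromosome 9 showed distances of 58 bp (174 pairs), 234 bp (125 pairs) and 468 bp (99 pairs). The start of chromosome 11 had no such spacing: its highest count above 100 bp was 110 pairs at 125 bp, over a median of 71.

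**Figure D2:**
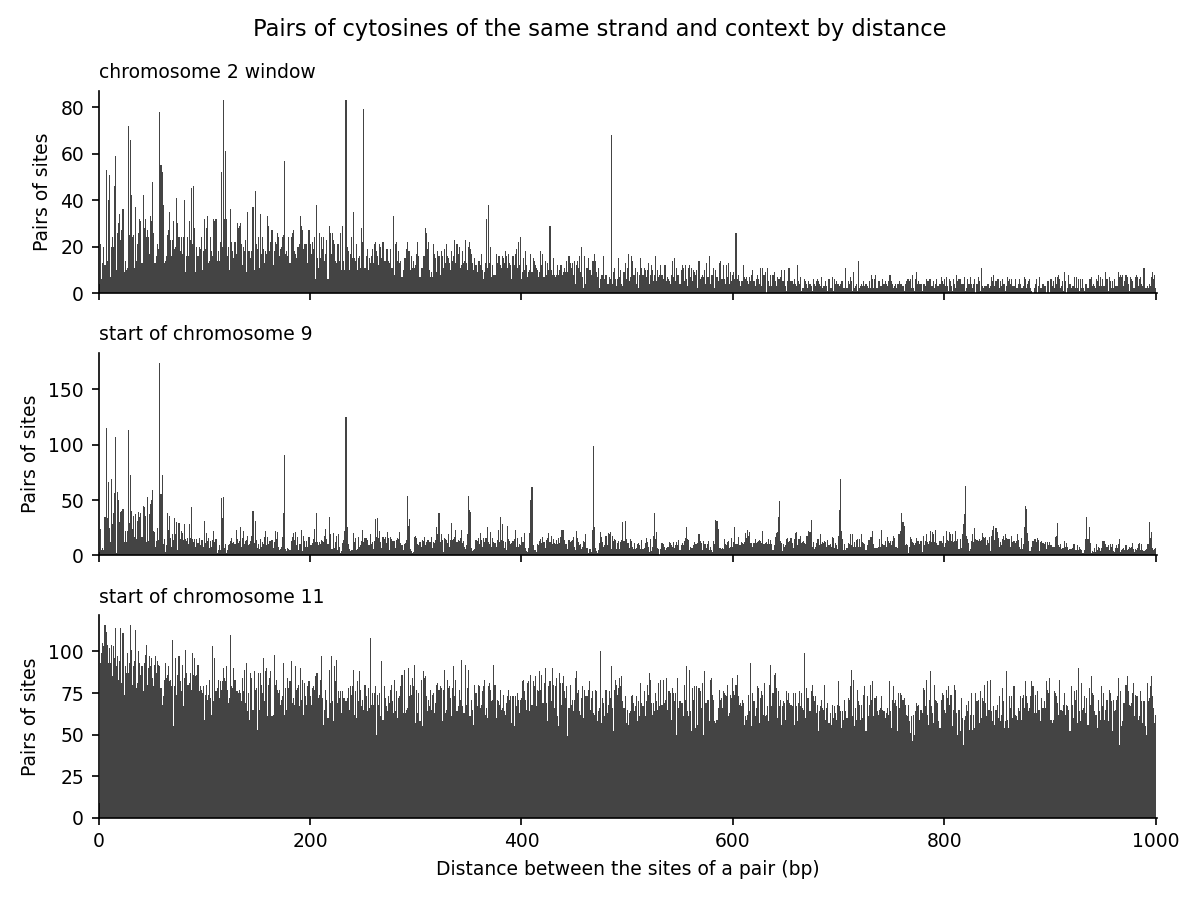
Number of pairs of listed cytosines on the same strand and in the same context (vertical) at each distance from 1 to 1000 bp (horizontal) in the chromosome 2 window, at the start of chromosome 9 and at the start of chromosome 11. The window stands out at 118, 234, 251 and 485 bp, the start of chromosome 9 at 58, 234 and 468 bp, and the start of chromosome 11 shows no distance far above the others.

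The 2 units were then searched for around every listed site, by comparing the given bases in a stretch of 60 bp with each unit in both orientations. A match needed at least 14 bases in common and 90% agreement. In the window, 589 sites had enough given bases and 491 of them matched (83.4%). The templates came from the window itself, so this share describes how much of the window the units cover and is no independent support. The 234 bp unit took 325 sites with 2574127 reads (81.8% of the window's reads). The 120 bp unit took 166 sites with 169485 reads (5.39%). The remaining 230 sites, 41 of them outside the blocks, held 12.8% of the reads.

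The units alternated and changed orientation. From left to right, block A held the 234 bp unit in the reverse orientation (chr2:98502440-98502653), the 120 bp unit (chr2:98502698-98502953) and the 234 bp unit in the forward orientation (chr2:98503014-98503102). Block B matched the 234 bp unit in reverse and held no match to the 120 bp unit. Block C matched the 120 bp unit, on the opposite strand to block A, and held no match to the 234 bp unit. Block D held the 120 bp unit in the orientation of block A (chr2:98506417-98506654), followed by the 234 bp unit in the forward orientation (chr2:98506754-98507452). In block D the 234 bp unit held 2235778 reads and the 120 bp unit 55255 reads.

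Outside the window, 868 of 8562 sites with enough given bases matched (10.1%). They lay in windows listed on chromosomes 4, 6, 9, 11, 12, 16 and X. The chromosome 2 window held 85.5% of the reads on matched sites, but only 491 of the 1359 matched sites. Both templates came from this window, which was itself chosen by its reads. That share of reads therefore describes the choice and is no independent support. The start of chromosome 9 held 613 sites of the 234 bp unit with 225521 reads, which was 49.6% of that window's reads. A second place on chromosome 9, chr9:35112819-35113095, held 92 sites of the same unit with 119205 reads. The 120 bp unit was found with 31 sites and 59642 reads at chr6:103599062-103599217, and with 31 sites and 35089 reads at chrX:139917552-139917637. The start of chromosome 11 gave 2 matched sites of the 234 bp unit with 9 reads, and mitochondrial DNA gave 0 of 3161.

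Reads were concentrated on few cytosines. The highest site held 13.6% of the window's reads, the 5 highest 36.6%, the 10 highest 48.2% and the 50 highest 78.5%. 50% of the reads lay on 12 of the 721 sites and 90% on 110 sites (15.3%). At the start of chromosome 9 the 5 highest sites held 16.7% of the reads, and at the start of chromosome 11 they held 6.65%. By the share of its highest site, the window had only rank 51 among 20062 autosomal windows with at least 100 sites. Their median was 1.86% and the highest was 43.8%, so such concentration was not particular to this window. Over all autosomes, 68.0% of the sites were needed for 90% of the reads. The window held 211 of the 393 autosomal sites with 1000 reads or more (53.7%) and the 10 highest of all. Because the window was chosen by its reads, these counts describe the choice and are not a finding. The highest autosomal site elsewhere, at position 103599170 of chromosome 6, had 32783 reads and lay in the match to the 120 bp unit there.

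**Figure D3:**
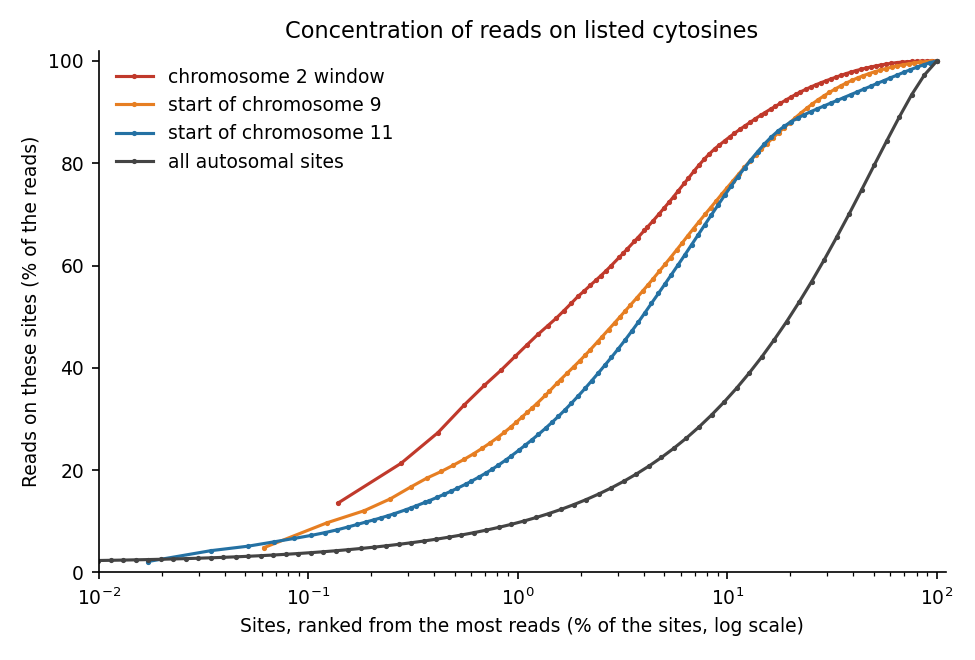
Share of reads (vertical, %) on the sites with the most reads, ranked from the highest (horizontal, % of the sites, log scale), for the chromosome 2 window, the starts of chromosomes 9 and 11 and all autosomal sites. The curve of the window lies above the others and reaches 90% of the reads at 15.3% of its sites.

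The 10 sites with the most reads were all CG and all lay in the 234 bp unit. The highest, the plus-strand cytosine at position 98507264, had 426413 reads. The minus-strand cytosine of the same CG, at 98507265, had 244544 reads. In copy 3, the CG at 98507324 had 188753 plus-strand and 92877 minus-strand reads. The minus-strand cytosine at 98507307 had 169463 reads, and the plus-strand cytosine at 98507248 had 51799. Copy 1 held 3 of the 10: position 98506779 with 84353 reads and position 98506780 with 63084 reads, which form 1 CG, and position 98506763 with 72906 reads. The only one outside block D was 98502452 in block A, with 121463 reads on the plus strand.

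Copies of the same unit did not carry like numbers of reads. Copy 3 held 1807640 reads, 57.5% of the window, with a median of 6246 per site. Copy 1 held 376371 reads with a median of 581.5, and copy 2 held 216800 reads with a median of 775. Of the 50 places of the unit listed in all 3 copies, copy 3 was the highest at 38, copy 2 at 7 and copy 1 at 5. The median ratio was 7.88 for copy 3 over copy 1 and 11.7 for copy 3 over copy 2. The difference was not even along the unit. At place 71, counted from 1 at the left end of the unit, the plus-strand CG had 426413 reads in copy 3, 84353 in copy 1 and 11168 in copy 2. At place 56 the minus-strand CG had 74 reads in copy 3, 1370 in copy 1 and 19066 in copy 2. At place 5 the plus-strand CT had 566 reads in copy 3, 25440 in copy 1 and 359 in copy 2.

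**Figure D4:**
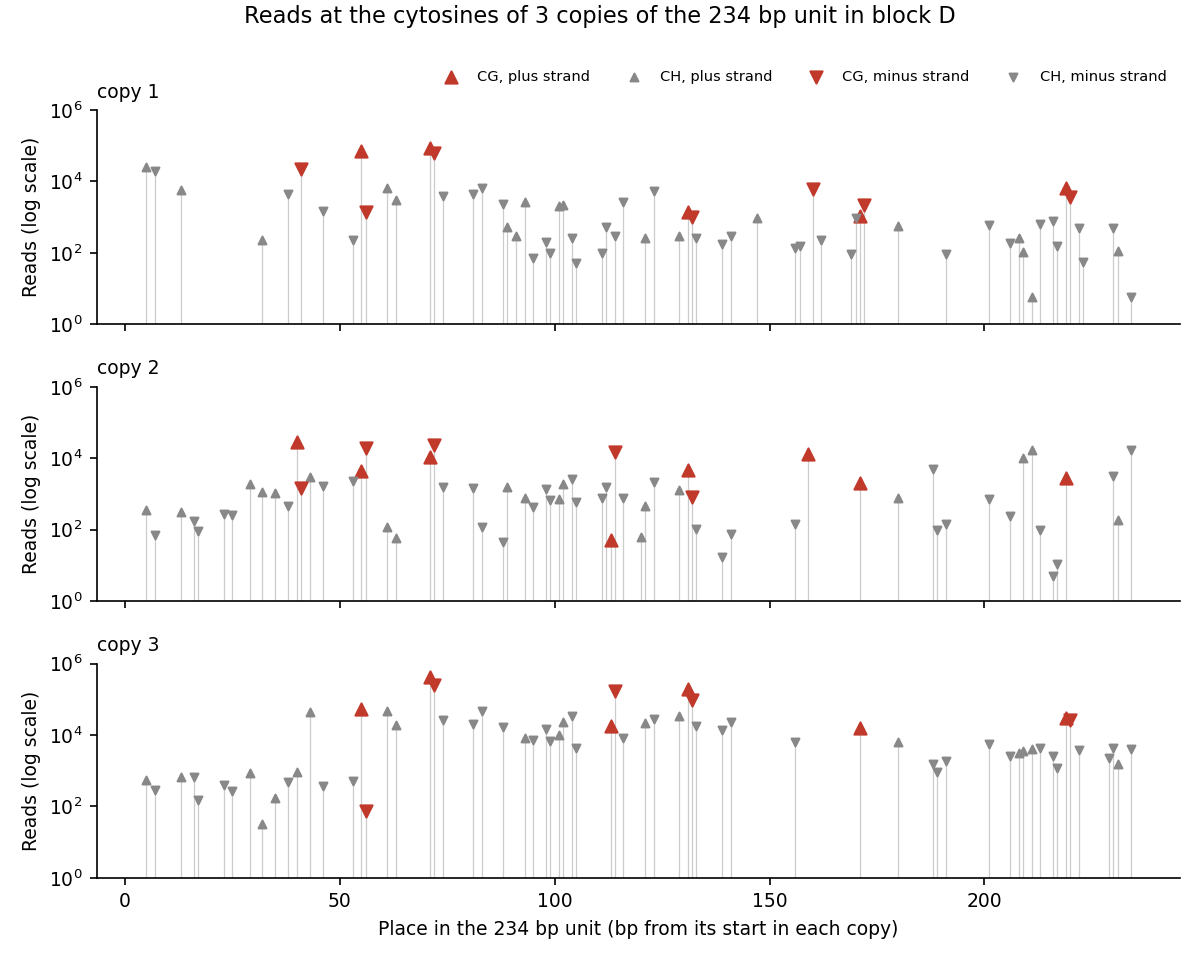
Reads at each listed cytosine (vertical, log scale) by place in the 234 bp unit (horizontal, bp from the start of each copy) for the 3 copies in block D. Red triangles are CG and grey ones CA, CC or CT sites, pointing up for the plus and down for the minus strand. Copy 3 has its highest values at place 71 (426413 reads), place 72 (244544), place 131 (188753) and place 114 (169463). At place 55 copy 1 is higher, with 72906 reads against 51799 in copy 3. At places 5, 7 and 13, near the left end, copy 1 has the highest values.

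The order of places by reads was only loosely shared between copies. Over the 50 places, Spearman's rho was 0.35 between copies 1 and 3, 0.24 between copies 2 and 3 and 0.07 between copies 1 and 2. The points share the libraries, the sequence and neighbouring cuts, so these are descriptions. Over all matched sites of the window, 70 places of the 234 bp unit were listed in at least 3 copies. The highest copy had a median of 70.5 times the reads of the lowest, and at 60 of the 70 places the ratio was above 10. For the 120 bp unit the median ratio was 17.7 over 35 places. The minus-strand CG at place 72 of the longer unit, for example, had 244544, 63084 and 24074 reads in copies 3, 1 and 2, and 816 reads in block A.

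Folding positions at 234 bp did not gather the reads further. The 5 highest phases modulo 234 held 37.7% of the reads, with 24 sites. The leading phase held 428975 reads on 4 sites, of which the highest site alone had 426413. The next 4 phases held 248229, 192941, 175655 and 139087 reads, with highest sites of 244544, 188753, 169463 and 63084. The 5 highest single sites held 36.6%. Aligned by the unit itself, which allows for the spacer and for orientation, the 5 highest places of the matched sites held 43.9% of the window's reads. Of the reads on the 234 bp unit they held 53.7%, against 44.7% for the 5 highest single sites. A phase or a place sums all its sites, so the 5 highest cannot hold less than the 5 highest single sites.

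The CENP-B box is the motif NTTCGNNNNANNCGGGN, to which CENP-B binds. It was searched on both strands of the given bases, and a match needed at least 6 of its 9 fixed letters given and none in disagreement. The search was chosen after the unit of 120 bp was seen. The window held 4 matches, each with 6 of the letters given: 2 on the minus strand in block A (chr2:98502710-98502726 and chr2:98502830-98502846) and 2 on the plus strand in block C (chr2:98505217-98505233 and chr2:98505337-98505353). In all 4 the given letters were the CG and the CGGG of the motif, while its TT and its A were not given. Whether the full motif is present could therefore not be told. Neighbouring matches lay 120 bp apart in each block. The table held 18 matches, 14 of 24161 autosomal windows of 100 kb held at least 1 (0.0579%), and only the chromosome 2 window held more than 1. Most windows list too few CH sites to give 6 letters, so this share depends on how densely sites are listed. A match is no evidence of binding.

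Both CG sites of these matches were listed with reads, unevenly. In the right match of block C the first CG had 12021 plus-strand and 741 minus-strand reads, and the second had 610 reads on the minus strand. In the left match of block C the first CG had 5 and 6 reads and the second had 354 reads on the plus strand. In block A the CG at 98502722 had 2094 plus-strand and 12436 minus-strand reads, and the CG at 98502842 had 5351 and 2600. The second CG of these matches in block A had 1136 and 41 reads at 98502713, and 2942 and 4471 reads at 98502833.

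Most of the sites were outside CG, while most of the reads were on CG. The window listed 146 CG sites (20.2%), 301 CA (41.7%), 177 CT (24.5%) and 97 CC (13.5%). CH sites made up 79.8% of the sites (76.6 to 82.6) and 34.8% of the reads. Within the 4 blocks CG sites had a median of 2053 reads (113 sites) and CH sites one of 317 reads (567 sites). By block, the CG median was the higher in A (2340.5 for CG, 339 for CH) and in D (5998 for CG, 662 for CH). It was the lower in B (34 for CG, 46 for CH) and in C (24 for CG, 75 for CH). Among the CH sites CA took 52.3%, CT 30.8% and CC 16.9%. The CH share of reads was 32.3% in block D, 42.6% in block A, 62.9% in block C and 87.6% in block B. In block D 2 CH sites at 98507254 and 98507276 had 47485 reads each, the highest of their kind.

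By CH share of sites the window had rank 2 among 20062 autosomal windows with at least 100 sites, whose median was 5.33%. The start of chromosome 9 was higher at 80.2% and the start of chromosome 11 just lower at 77.5%. In reads these windows parted: CH held 34.8% of the reads in the chromosome 2 window, against 58.5% at the start of chromosome 9 and 22.7% at the start of chromosome 11. Among CH sites of the blocks, 4.94% lay more than 50 bp from a listed CG, and they held 3.31% of the CH reads. Over the whole comparison windows, such sites were 30.5% of the CH sites at the start of chromosome 9, with 41.7% of the CH reads. At the start of chromosome 11 they were 50.5% of the CH sites, with 40.0% of the CH reads. The site shares differ as well, so these read shares depend on how densely CG sites are listed.

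Some places of a unit were CG in 1 copy and CH in another. There were 8 such places, 6 in the longer and 2 in the shorter unit, counting matched sites and the other sites of the printed copies. The median of the CG copies was above that of the CH copies at 5 of them, and at 3 every CG copy exceeded every CH copy. At place 114 of the longer unit, minus strand, the CG copies had 169463 and 14799 reads and the CT copy 295. At place 160 the CG copies had 16230 and 5998 reads and the CT copy 35. That CT copy lay in block B, with a median of 45.5 reads per site. The CG copies lay in blocks A and D, with medians of 401 and 875.5. At such places context and copy cannot be told apart. At place 171, plus strand, the CG copies had 15739, 2053, 1096 and 770 reads and the CA copy 4222. At place 40 the CG copies had 28769, 86 and 60 reads and the CT copy 934. A higher count at CG was thus not general among these places.

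The strands were near balance in sites and less so in reads. The plus strand held 366 of the 721 sites (50.8%) and 54.1% of the reads. The majority of reads rested on 1 site: without 98507264 the plus share of reads was 46.9%. Among CG sites the plus strand held 57.5% of the reads, or 46.4% without that site, and among CH sites 47.6%. By block the plus share of sites was 58.0% in A, 59.8% in B, 36.2% in C and 43.7% in D. Its share of reads was 59.6% in A, 59.6% in B, 55.5% in C and 52.9% in D. Without the highest site of each block, the plus share of reads was 47.1% in A, 53.8% in B, 34.6% in C and 43.5% in D. The plus majority of reads in A, C and D thus rested on 1 site each.

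A CG can be modified on both strands, and 49 of the 97 CG dyads of the window were listed on both (50.5%, 40.2 to 60.8). In the 4 blocks this was 45 of 68 (66.2%), and outside them 4 of 29 (13.8%). Where both strands were listed, the higher had a median of 3.50 times the reads of the lower, and at 26 of the 49 the ratio was above 3. Spearman's rho between the strands was 0.62 over the 49 dyads. At the start of chromosome 9, 33.2% of 241 dyads were listed on both strands, and at the start of chromosome 11, 73.9% of 755.

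The class codes bear on the counts. The class 1CH held 408 sites, 56.6% of those in the window, against 2.29% of the sites in the whole table. Its share of reads was 25.4% in the window, against 1.92% in the whole table. The class 2CH held 167 sites with 9.39% of the reads, 1CG 94 sites with 54.1%, CGCH 47 sites with 11.2%, and 2CG 5 sites with 34 reads. Of the 84 plus-strand sites of 2CG and 2CH, 72 were followed 21 to 25 bp to the right by a minus-strand site of their class (85.7%), and in 39 of these pairs both cytosines had the same count. For the other classes such a partner was found for 45 of 282 plus-strand sites, with 0 equal counts. The CH sites at 98507254 and 98507276 are such a pair, and the same places of the unit also had equal counts in copy 1 (6625 each) and copy 2 (117 each). If a pair of this kind stands for 1 set of reads, its reads are counted at both cytosines.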

How the data were processed

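Genomic DNA was glucosylated, cut with AbaSI, ligated to a biotinylated adapter, sheared to about 300 bp, amplified for 16 PCR cycles and sequenced, per the labels' protocols. The submitters' processing notes name CASAVA 1.8.2, Bowtie and the build mm9. The treatment of reads with several matches and of PCR copies, the rule that assigned cuts to cytosines and the way the libraries were joined are steps not given in the sources used here. Whole-number read counts per cytosine were used as deposited by the authors, with a minimum of 2. Cytosines that are not listed cannot be read as 0.

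The window, its comparison regions and all lists were chosen with earlier results of these data known. Sites were named by rule: the 10 with the most reads, blocks with at least 20 sites, the 10 leading distances above 100 bp and the 5 leading phases. The unit, copy and motif searches were chosen after seeing the data. Each unit is the leading distance above 100 bp in 1 of the 2 blocks with the most reads. Around each site a stretch of 60 bp with at least 20 given bases was compared with both units. The searches for distances and units were tested on simulated repeats. Intervals are exact Clopper-Pearson and account for counting error alone, because without molecular identifiers PCR reads cannot be taken as independent molecules. Python 3.11.15, numpy 2.4.6, pandas 2.3.3, scipy 1.17.1 and matplotlib 3.10.9 were used.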

Additional observations from a re-analysis of the deposited data

How the results depend on the processing

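The reads could not be split by library, so no library was left out, and reads from several genomic copies cannot be told apart from more modified copies. No paired analysis was possible because the table holds 1 count column for both libraries. Of 52 alternatives over 14 results, 25 kept the value within its limits and 27 moved it. The leading distance was 251 bp with CG sites only or with at least 10 reads, 118 bp with CH sites only, with the plus strand only or with all pairs whatever their strand and context, and 120 bp without block D, an alternative chosen after seeing the data. The share of reads on the 5 highest sites (36.6%) was 38.4% with a weight of 0.5 for 2CG and 2CH, 18.3% without those 5 sites and 44.8% with CG dyads joined. The number of blocks with at least 20 sites was 4 for a joining distance of 200 bp, 1 for 1000 bp and 2 for 5000 bp. The CH share of sites (79.8%) was 74.3% without 2CG and 2CH, and 83.4% in the 4 blocks only, where the share of dyads listed on both strands was 66.2%. The share on the 5 leading phases (37.7%) was 36.9% for a period 1 bp shorter or 1 bp longer, 38.2% for a period divided by 2 and 36.8% for a period multiplied by 2, all close to the 36.6% that the 5 highest sites hold whatever the period. The reads of the window, 764 times the autosomal median, were 3.25 times it without the top 0.1% of sites (those above 168 reads), 9444 times it in windows of 10 kb and 60.01 times it in windows of 1 Mb. The share of sites matched to a unit (68.1% of 721) was 77.0% at 80% agreement and 46.0% at 95%, both chosen after seeing the data. The CH share of reads (34.8%) was 54.8% without the 5 highest sites. The plus-strand share of reads (54.1%) was 46.9% without the highest site, an alternative chosen after seeing the data.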

Other observations

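The units were also compared, place by place, between the window and the other regions that hold them, as a description over places that share the libraries and the sequence. For the 234 bp unit, Spearman's rho of the median reads per place was -0.01 over 87 places between the window and the start of chromosome 9, where the window was higher at 72 places. It was 0.39 over 73 places between the window and chr9:35112819-35113095, where the window was higher at 41. For the 120 bp unit it was 0.48 over 31 places between the window and the matched stretch on chromosome X, and 0.01 over 26 places between the window and the stretch on chromosome 6. At the start of chromosome 9 the minus-strand CG at place 160 led among the CG places with 26493 reads over 6 copies, whereas place 71 led in the window with 522167 reads over 4 copies.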
